A study of Mus musculus and Homo sapiens with 10 samples.

Results

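ETn and MusD are related families of mouse endogenous retrovirus (ERV), and 5 of the 1196 repeat subfamilies in the mESC subfamily table carry a name that starts with ETn, MMETn or RLTRETN. They are MMETn-int with 980 annotated copies, ETnERV-int with 906, ETnERV2-int with 1805, ETnERV3-int with 560 and RLTRETN_Mm with 1355. Names ending in -int are internal parts of proviruses, so 4 members are internal parts and RLTRETN_Mm is the only LTR (long terminal repeat, the promoter-bearing end of a provirus). All 5 belong to the ERVK family, which has 283 subfamilies in the table. Members were chosen by name, with earlier results of these data known. The data are RNA-seq libraries of E14, a line of mouse embryonic stem cells in wide use, kept without feeders in 2i medium with LIF. The 4 control libraries came from untreated cells, and the 4 vitC libraries from cells given vitamin C at 100 µg/ml for 24 h. Controls and vitC libraries are both numbered 1 to 4, and each number stands for 1 culture label in both groups (10, 11, 35B and 35C). All libraries are of 1 cell line with no engineered allele, so p-values measure the spread between cultures of that line.

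MusD elements are ERVs that carry retroviral genes, and ETn elements are non-coding relatives with nearly the same LTRs that rely on MusD proteins to move. In the repeat annotation MMETn-int covers the internal part of ETn elements and ETnERV-int that of MusD elements, and RLTRETN_Mm is an LTR of this group. Both families are transcribed in early mouse embryos and embryonic stem cells, and new ETn insertions are a known source of mutations in laboratory mice. ETnERV3-int belongs to a separate group of elements, which the study pairs with the LTRs RLTR13B2 and RLTR13A3. VitC is a cofactor of dioxygenases that remove methyl groups from histones and oxidise those on DNA, and the comparison asks whether repeat transcripts of each subfamily changed within 24 h of vitC.

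The libraries held between 2321035 and 5124928 subfamily counts, with overlapping ranges in control and vitC. The 8 markers of naive mESCs were above the lowest value of the gene table in all 8 libraries. Of 5 markers of 2-cell-like cells, 0 were above it in every library and 3 in at least 1. Of 6 fibroblast markers, 1 was above it in every library and 5 in at least 1. Of 4 primed or early lineage markers and of 4 primitive endoderm markers, 2 each were above it in every library, and all 4 each in at least 1. The mean of the fibroblast list on the variance-stabilised log2 scale lay between 6.36 and 6.39 in control and between 6.42 and 6.57 in vitC libraries, and that of the 2-cell list between 6.13 and 6.26 and between 6.22 and 6.42, beside a lowest table value of 6.13. The fibroblast and 2-cell lists sat near the lowest value. The part of cells of any of these other types in the results was not tested.

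Most reads from these elements align to more than 1 place, so each subfamily has 3 numbers per library. The uniquely mapped counts are reads with a single position, and the aligned reads are read here as all reads that touch any copy of the subfamily. The expected counts divide each shared read among its positions by an expectation-maximisation step. In some libraries the expected counts exceeded the aligned reads, up to 120.4% for MMETn-int in control replicate 3. This reading of the aligned reads is therefore not exact. The members held between 37.1% and 50.8% of the expected counts of all ERVK subfamilies, and only between 1.84% and 2.90% of the uniquely mapped ones. Pooled over the 8 libraries, uniquely mapped counts were 0.483% of the expected counts for MMETn-int, 0.983% for ETnERV-int, 3.60% for ETnERV3-int, 7.10% for ETnERV2-int and 9.38% for RLTRETN_Mm. The median was 40.1% over 881 subfamilies with at least 100 expected counts and 10.6% over the 42 ERVK internal parts among them, so all 5 members lay below both medians, MMETn-int being the second lowest of the 881. Levels are not ranked between subfamilies, because lengths of the annotated copies were not used here.

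With vitC, 2 of the 5 members rose, ETnERV3-int and ETnERV2-int, and 0 fell. The remaining members, MMETn-int, ETnERV-int and RLTRETN_Mm, did not pass the test. How ETnERV2-int relates to ETn and MusD elements is not given in the sources used here. Calls were made with edgeR's quasi-likelihood test on expected counts over the 902 subfamilies tested, all 5 members included, at an adjusted p of 0.05. Of those 902, 0.887% were called higher and 0% lower, while 25 were lower at an unadjusted p under 0.05, none of them a member. ETnERV3-int and ETnERV2-int were also the members called higher by DESeq2, which called 2.22% of all subfamilies higher and 0% lower, by DESeq2 with the replicate number as a block (3.55% higher, 0.222% lower), with no filter on low counts (0.769% higher), with repeat classes only (1.64% higher) and with scaling by the aligned library size (0.993% higher). The median log2 fold change was 0.23 over the 5 members, which is the value of ETnERV-int, and -0.01 over all subfamilies tested. The member median was -0.28 on uniquely mapped counts and -0.05 on aligned reads with the block. In bulk RNA, more cells that transcribe an element and more transcripts per cell cannot be told apart.

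ETnERV3-int had the largest log2 fold change of all subfamilies in the unpaired fit. From the same libraries, the study reports ETnERV3-int as the most prominent of several upregulated ERVs. Its expected counts were 447, 345, 330.2 and 360.03 in control replicates 1 to 4 and 2237, 2020.3, 845 and 1176 in vitC replicates 1 to 4. As TMM-scaled CPM (counts scaled to a common library total), these were 140.3, 115, 115 and 104 in control and 681, 501, 406 and 460.2 in vitC. Every vitC library was above every control, and the replicate pairs differed by between 1.82 and 2.28 on the log2 scale. The mean rose from 118 ± 15.5 CPM to 512 ± 119 CPM (SD, n = 4), a log2 fold change of 2.11 (standard error, SE, 0.16, adjusted p = 0.000238, edgeR). With the replicate number as a block it was 2.10 (SE 0.07, adjusted p = 3.29e-06, edgeR).

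ETnERV2-int, the member with the most annotated copies, also rose, with a smaller log2 fold change. Its expected counts were 323, 374, 301 and 329 in control replicates 1 to 4 and 834, 1043, 343 and 451 in vitC replicates 1 to 4. In CPM these were 101, 124, 105 and 94.9 in control and 254, 259, 165 and 176 in vitC, so the groups did not overlap after scaling and all 4 pairs rose. VitC replicates 1 and 2 stood above vitC replicates 3 and 4. The mean went from 106 ± 12.6 CPM to 213 ± 49.7 CPM (SD, n = 4), a log2 fold change of 1.01 (SE 0.16, adjusted p = 0.0213, edgeR). This call had little margin in the unpaired fit: it was lost without control replicate 1, 3 or 4 or vitC replicate 1 or 2, with edgeR adjusted p-values of 0.0523, 0.0793, 0.0916, 0.0709 and 0.0751. With the replicate block the log2 fold change was 0.99 (SE 0.10, adjusted p = 0.000853, edgeR).

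MMETn-int, the internal part of ETn elements, held most of the reads of the group, between 28.2% and 46.1% of all ERVK expected counts. Its expected counts were 50181, 47499, 56354 and 58025 in control replicates 1 to 4 and 46355, 44708, 34983 and 38758 in vitC replicates 1 to 4. In CPM these were 15748, 15775, 19591 and 16744 in control and 14103, 11094, 16804.5 and 15166 in vitC. The vitC value was the lower one in 4 of 4 pairs, although the 2 groups overlapped. Mean levels were 16964 ± 1811 CPM and 14292 ± 2404 CPM (SD, n = 4), and the log2 fold change of -0.25 (SE 0.13) did not pass the test (adjusted p = 0.502, edgeR). The block narrowed the SE to 0.07 around -0.26, which still did not pass (adjusted p = 0.104, edgeR).

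ETnERV-int, the MusD internal part, went different ways in different pairs. Its expected counts were 9869, 8787, 4118 and 7832 in control replicates 1 to 4 and 8443, 9894, 4018 and 11415 in vitC replicates 1 to 4. In CPM these were 3097, 2918, 1432 and 2260 in control and 2569, 2455, 1930.1 and 4467 in vitC. Replicates 1 and 2 were lower with vitC and replicates 3 and 4 higher, and the highest and lowest libraries differed more within a group than the group means did. The means were 2427 ± 755 CPM and 2855 ± 1110 CPM (SD, n = 4), with a log2 fold change of 0.23 (SE 0.29, adjusted p = 0.787, edgeR). Without vitC replicate 4 it was -0.067 (adjusted p = 0.920, edgeR).

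RLTRETN_Mm, the LTR, had expected counts of 1264, 757, 1012 and 1541 in control replicates 1 to 4 and 916, 1100.2, 794.5 and 1032 in vitC replicates 1 to 4. In CPM these were 397, 251, 352 and 445 in control and 279, 273, 381 and 404 in vitC, where 2 of 4 pairs were higher and the vitC range lay within the control range. Mean levels were 361 ± 82.4 CPM and 334 ± 68.1 CPM (SD, n = 4), and the log2 fold change was -0.12 (SE 0.19, adjusted p = 0.818, edgeR).

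**Figure D1:**
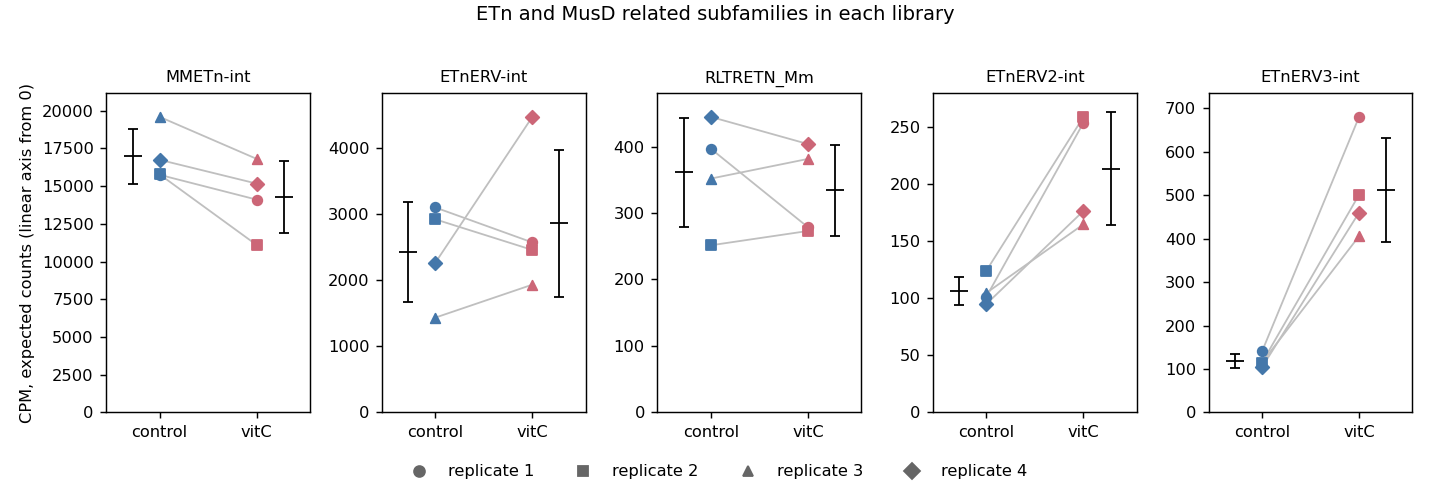
Expected counts as CPM for each of the 5 subfamilies in 4 control and 4 vitC libraries of mESCs, on linear axes from 0 that differ between panels. Markers give the replicate number, grey lines join a control and a vitC library of 1 number, and black bars are the mean ± SD. For ETnERV3-int and ETnERV2-int all vitC libraries lie above all controls, and for the other 3 members the groups overlap.

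The response depended on which reads were counted. On aligned reads, taken here as undivided, ETnERV3-int had 447, 341, 321 and 353 in control replicates 1 to 4. In vitC replicates 1 to 4 it had 2218, 2025, 838 and 1066. These control and vitC values are close to its expected counts, which were between 99.8% and 110.3% of the aligned reads. On this scale ETnERV3-int rose by 2.09 in log2 (SE 0.17, adjusted p = 0.000409, edgeR) and ETnERV2-int by 1.02 (SE 0.16, adjusted p = 0.0271, edgeR). The other 3 members lay near 0 on this scale, MMETn-int at -0.06 (SE 0.11), RLTRETN_Mm at -0.05 (SE 0.12) and ETnERV-int at -0.12 (SE 0.09). Both rises passed with the block as well. On aligned reads edgeR called 0.767% of 913 subfamilies higher and 0% lower, and 6.35% and 1.1% with the block.

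Uniquely mapped counts were few and gave no call. ETnERV3-int had 33, 37, 19 and 30 in control replicates 1 to 4 and 52, 48, 27 and 33 in vitC replicates 1 to 4, and ETnERV2-int had 34, 30, 23 and 25 and then 53, 50, 22 and 47. After scaling both were higher with vitC in 4 of 4 pairs. The log2 fold change was 0.43 (SE 0.18) for ETnERV3-int and 0.63 (SE 0.21) for ETnERV2-int, with unadjusted p-values of 0.0383 and 0.0128 from edgeR and an adjusted p of 0.627 for each. The table as a whole had no call on this scale (0% of 742 subfamilies in either direction with edgeR), 31 being higher and 24 lower at an unadjusted p under 0.05. With the replicate block 0.404% were called higher and 0.135% lower, with no member among them.

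The remaining members had between 61 and 307 uniquely mapped counts in control and between 45 and 253 in vitC libraries. Their log2 fold changes on that scale were -0.28 (SE 0.14) for MMETn-int, -0.29 (SE 0.22) for ETnERV-int and -0.33 (SE 0.20) for RLTRETN_Mm, each with 1 of 4 pairs higher. These differences did not pass the test, with edgeR adjusted p-values of 0.654, 0.768 and 0.721.

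**Figure D2:**
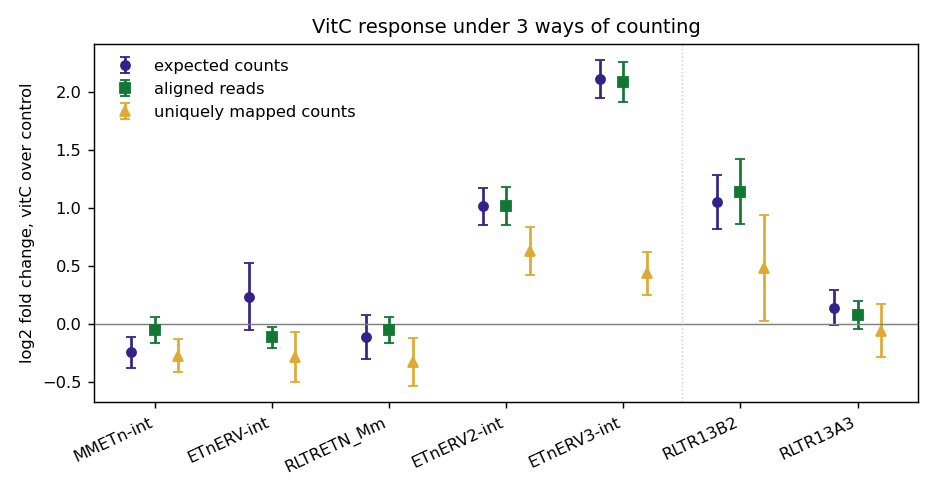
Log2 fold change of vitC over control from the unpaired edgeR fit on expected counts, aligned reads and uniquely mapped counts, with bars of 1 SE, for the 5 subfamilies and, right of the dotted line, the LTRs RLTR13B2 and RLTR13A3. ETnERV3-int lies above 2 on expected counts and aligned reads and at 0.43 on uniquely mapped counts, and the sign of ETnERV-int differs between expected counts and the other 2 scales.

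The uniquely mapped counts of ETnERV3-int grew less than its expected counts. Uniquely mapped counts were 7.38%, 10.7%, 5.75% and 8.33% of its expected counts in control replicates 1 to 4 and 2.32%, 2.38%, 3.20% and 2.81% in vitC replicates 1 to 4. Control libraries averaged 8.05 ± 2.08% and vitC libraries 2.68 ± 0.41% (SD, n = 4), with no overlap. Such a fall without overlap was seen in 0.795% of the 881 subfamilies with at least 100 expected counts, and 2.61% had no overlap and were higher. The measure was chosen after its values were seen and is given without a test. For the other 4 members the share overlapped between the groups, at 8.45 ± 1.40% and 6.99 ± 2.40% for ETnERV2-int, 10.1 ± 2.73% and 8.92 ± 0.96% for RLTRETN_Mm, 1.19 ± 0.33% and 0.90 ± 0.25% for ETnERV-int and 0.476 ± 0.103% and 0.493 ± 0.051% for MMETn-int (SD, n = 4).

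**Figure D3:**
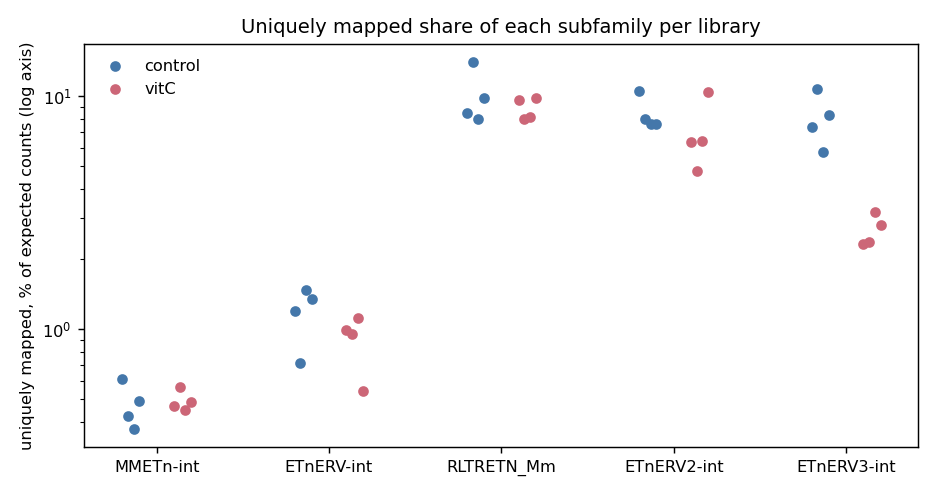
Uniquely mapped counts as a percentage of expected counts for each subfamily, 1 point per library, on a log axis. MMETn-int and ETnERV-int reach at most 1.48% in either group, and the vitC libraries of ETnERV3-int, between 2.32% and 3.20%, lie under all its controls.

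How expected counts were divided between ETn and MusD internal parts varied between libraries far more than the proportions of aligned reads or uniquely mapped counts. ETnERV-int took 16.4%, 15.6%, 6.81% and 11.9% of the expected counts of MMETn-int and ETnERV-int together in control replicates 1 to 4, and 15.4%, 18.1%, 10.3% and 22.8% in vitC replicates 1 to 4. This is a 3.34-fold range over the 8 libraries, and control replicate 3 and vitC replicate 4 are its ends. The aligned reads of ETnERV-int, set against those of MMETn-int, stayed between 44.8% and 49.7%, a 1.11-fold range. The share of ETnERV-int in the uniquely mapped counts of both stayed between 22.3% and 27.8%, a 1.25-fold range. In control replicate 3, where ETnERV-int was lowest, the expected counts of MMETn-int were 120.4% of its aligned reads, beside 84.4% to 99.5% in the other 7.

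Summed into 1 feature, MMETn-int and ETnERV-int had a log2 fold change of -0.18 (SE 0.12, adjusted p = 0.630, edgeR), and -0.19 with the block (SE 0.08, adjusted p = 0.274, edgeR). The sum takes the division of reads between both parts out of the comparison. The 2 subfamilies together made up between 96.7% and 97.4% of the members' expected counts in control and between 92.9% and 95.2% in vitC libraries.

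**Figure D4:**
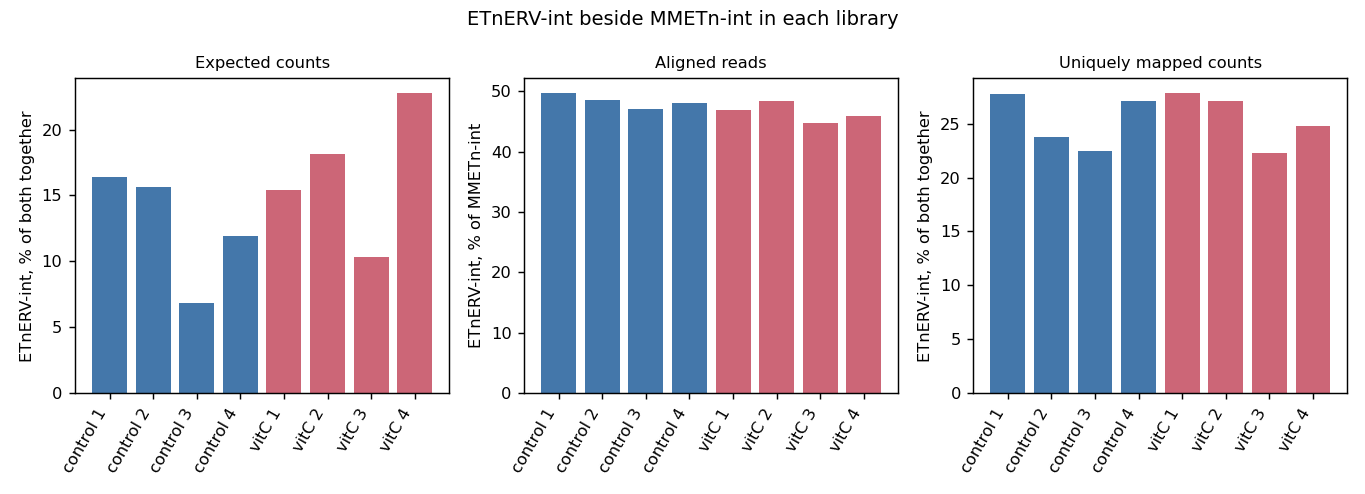
ETnERV-int beside MMETn-int in each of the 8 libraries, as a percentage of both together for expected counts and for uniquely mapped counts, and as a percentage of MMETn-int for aligned reads, in which 1 read can be listed under both. Bars start at 0. The expected counts range from 6.81% to 22.8%, and the other panels stay within 1.25-fold.

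LTRs were compared with internal parts as log2 ratios of expected counts within a library, which need no scaling between libraries. RLTRETN_Mm over the sum of MMETn-int and ETnERV-int was -5.57, -6.22, -5.90 and -5.42 in control replicates 1 to 4 and -5.90, -5.63, -5.62 and -5.60 in vitC replicates 1 to 4. LTR and internal part kept their proportion within the spread of the controls, with a difference of 0.09 (exact two-sided permutation p = 0.714, n = 4 each, adjusted p = 0.714 over 3 ratios). Without control replicate 2, which has the lowest ratio, the difference was -0.060.

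ETnERV3-int over the same sum was -7.07, -7.35, -7.52 and -7.51 in control replicates 1 to 4 and -4.61, -4.76, -5.53 and -5.41 in vitC replicates 1 to 4. It rose by 2.28 with no overlap (exact two-sided permutation p = 0.0286, n = 4 each, adjusted p = 0.0429 over 3 ratios). This exact p is the smallest that 70 labellings allow. The study had already reported a rise of ETnERV3-int from these libraries, so the ratio is not separate support for it. ETnERV3-int moved apart from the ETn and MusD internal parts in all 4 pairs. The difference was 2.15 on aligned reads with the same exact p and 0.71 on uniquely mapped counts (exact permutation p = 0.114). Within pairs the smallest p that 16 sign changes allow is 0.125, which both this ratio and the next one reached.

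RLTR13B2, the LTR that the study pairs with ETnERV3-int, has 314 annotated copies. Its expected counts were 309, 238, 152 and 197 in control replicates 1 to 4 and 605, 719, 232 and 294 in vitC replicates 1 to 4, and its mean went from 71.4 ± 20.6 CPM to 147 ± 39.4 CPM (SD, n = 4). Its log2 fold change of 1.05 (SE 0.23) did not pass in the main unpaired fit (adjusted p = 0.0865, edgeR). It passed with the replicate block (1.05, SE 0.06, adjusted p = 5.19e-05, edgeR). Without the block it passed in DESeq2 (adjusted p = 0.000881), and in edgeR scaled by aligned library size (0.0163) or on repeat classes only (0.0464). In unpaired edgeR it did not pass with no filter (0.0818), a minimum of 10 counts (0.0852), or 1 library left out (0.0523 to 0.298). In each culture set alone it passed in unpaired edgeR. The log2 fold change was 1.05 in replicates 1 and 2 (adjusted p = 0.00476, edgeR) and 1.05 in replicates 3 and 4 (adjusted p = 0.0173, edgeR). The study reports RLTR13B2 as upregulated. It rose in all 4 pairs.

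Relative to its internal part, RLTR13B2 fell with vitC. The log2 ratio of RLTR13B2 over ETnERV3-int was -0.53, -0.53, -1.12 and -0.87 in control replicates 1 to 4 and -1.89, -1.49, -1.86 and -2.0 in vitC replicates 1 to 4. The difference of -1.05 had an exact two-sided permutation p of 0.0286 (n = 4 each, adjusted p = 0.0429 over 3 ratios). On aligned reads it was -0.94 with the same exact p, and on uniquely mapped counts -0.065 (exact permutation p = 0.914). RLTR13A3, the other LTR of the pairing, with 243 copies, was at 35.3 ± 2.97 CPM in control and 38.5 ± 7.99 CPM in vitC libraries (SD, n = 4), and its log2 fold change of 0.14 (SE 0.15, adjusted p = 0.773, edgeR) did not pass in either fit.

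**Figure D5:**
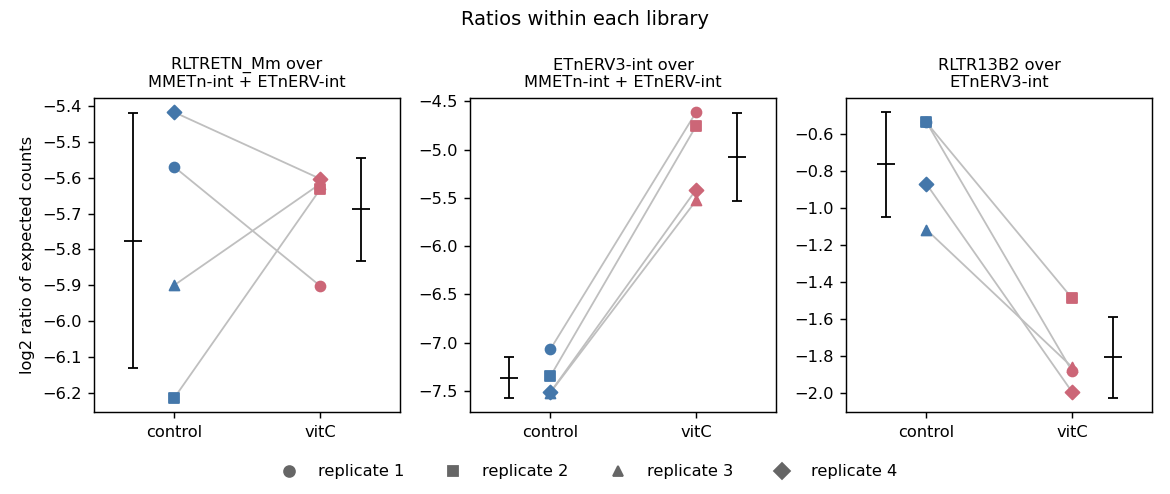
Log2 ratios of expected counts within each library for RLTRETN_Mm over MMETn-int plus ETnERV-int, ETnERV3-int over the same sum, and RLTR13B2 over ETnERV3-int. Markers give the replicate number, grey lines join libraries of 1 number, black bars are the mean ± SD, and the axes differ between panels and do not start at 0. The first ratio overlaps between groups, the second rises and the third falls in all 4 pairs.

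The cultures fall into 2 sets by their labels, replicates 1 and 2 (cultures 10 and 11) and replicates 3 and 4 (35B and 35C), and the labels do not say how the sets differ. Within the first set the log2 fold change was 2.21 for ETnERV3-int and 1.18 for ETnERV2-int, and within the second 1.99 and 0.78, each past the threshold in edgeR (adjusted p between 0.000561 and 0.0101). MMETn-int was at -0.32 and -0.18, RLTRETN_Mm at -0.23 and -0.02, and ETnERV-int at -0.26 and 0.79, with none past it. The difference between sets was tested as an interaction in edgeR, which called 0% of 902 subfamilies and no member, while 37 subfamilies had an unadjusted p under 0.05. ETnERV2-int was the one member among these, with a difference of -0.41 (SE 0.15, unadjusted p = 0.0243, adjusted p = 0.991). DESeq2 also called none, and gave no member an unadjusted p under 0.05.

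Outside the members, no ERVK subfamily had a log2 fold change above 1.59, the value of the LTR RLTR10D2. Of the RLTR13 LTRs, 22 of 23 were tested and none was called in the unpaired edgeR fit, with a median log2 fold change of 0.15. At an unadjusted p under 0.05, RLTR13B2, RLTR13D4, RLTR13E, RLTR13D6 and RLTR13D5 were higher and RLTR13A1 and RLTR13A2 lower. The block called 3 of them higher, RLTR13B2, RLTR13D4 at 0.96 and RLTR13E at 0.45, where it called 4.32% of all subfamilies higher and 0.333% lower. Of the IAP subfamilies, another group of young mouse ERVs, 22 of 25 were tested, with a median of 0.27. Without the block 3 were called higher, among them IAP-d-int at 1.27 and IAPEY3-int at 0.82, and with the block 7 were. Other ERVK internal parts had a median of 0.23, with 1 of 30 called higher in the unpaired fit and 9 of 30 with the block. Other ERVK LTRs had a median of 0.05 with 0 of 174 called by edgeR, and 5 with the block. The unpaired fit called 0.887% of all subfamilies higher.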

How the data were processed

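RNA was extracted from 8 mESC cultures and made into directional libraries; the paper names rRNA depletion, and the labels name depletion or mRNA isolation. The authors mapped reads to mm10 and counted them with SQuIRE, whose version is not given in the sources used here. The authors deposited, per subfamily, uniquely mapped counts, aligned reads, expected counts (estimated counts, with multi-mapped reads shared among copies), the aligned library size and the number of copies. Gene values, deposited on a variance-stabilised log2 scale, served only for marker levels. The meaning of the aligned reads was taken from the column name and the values, and is not exact, since some expected counts exceeded them. Whether subfamily counts are strand-specific is not given in the sources used here. 1 other column of per-sample values was not used, and the human libraries were left out because they hold no mouse subfamilies.

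Expected counts were rounded to whole numbers. Subfamilies were filtered with filterByExpr, TMM-scaled and tested in edgeR 4.0.16 (glmQLFit, glmQLFTest) in R 4.3.3, with Benjamini-Hochberg adjustment over all subfamilies tested and a threshold of 0.05. The standard error is the log2 fold change divided by the square root of F. DESeq2 1.42.0 was an alternative. Ratios used a pseudocount of 0.5 count and an exact two-sided permutation test over 70 labellings. The main fit has no term for the replicate number, because the methods name none. The fits with 1 library left out have no such term either. With such a term the SE went from 0.16 to 0.10 for ETnERV2-int and from 0.23 to 0.06 for RLTR13B2. The numbers pair the libraries, since libraries of 1 number share a culture label. Over subfamilies the correlation of their deviations from the group mean was 0.226, 0.307, 0.296 and 0.553 for replicates 1 to 4. Control replicates 1, 3 and 4 correlated best with the vitC library of their own number, and control replicate 2 with another. The fit with the replicate block is therefore given beside results it changes.

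The members, the lists and the rule for naming (every member, RLTR13B2 and RLTR13A3, the 3 subfamilies most like each member, and neighbouring groups by counts with a few examples) were chosen with earlier results of these data known. Set in the design were DESeq2, the block, uniquely mapped counts, the aligned library size, repeat classes only, other filters, each library left out, each culture set alone and a pseudocount of 5. Aligned reads, the summed feature and the comparison of uniquely mapped shares were added after seeing the data. Libraries held between 665034 and 988040 uniquely mapped counts. Data were also simulated from the real means over 892 tested subfamilies, with the same dispersion for every subfamily and 195 of them changed. There edgeR found 86.9% of changes of 1 and 100% of changes of 2 on the log2 scale, and 2.67% of its calls were false. The real unpaired fit called only 0.887% of subfamilies higher, and real dispersions differ between subfamilies, so these rates need not hold for the real data.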

Additional observations from a re-analysis of the deposited data

Results flagged for a closer look

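In TMM-scaled CPM of expected counts and of aligned reads, the vitC difference of ETnERV-int had opposite signs in the 2 culture sets. On expected counts the log2 difference in CPM averaged -0.26 in replicates 1 and 2, both lower, and 0.71 in replicates 3 and 4, both higher. On aligned reads these averages were -0.28 and 0.03. Uniquely mapped counts showed no such split, with differences of -0.76, 0.34, -0.06 and -0.47 in replicates 1 to 4. The interaction on those counts was -0.006 (SE 0.44, adjusted p = 0.998, edgeR). The interaction test in edgeR gave a difference of 1.05 (SE 0.49, adjusted p = 0.991) on expected counts and 0.30 (SE 0.14, adjusted p = 0.995) on aligned reads, so neither passed. With the replicate block the difference on expected counts was 0.97, with an unadjusted p of 0.00113 and an edgeR adjusted p of 0.904.

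MMETn-int showed opposite signs between the sets on aligned reads, with averages of -0.23 in replicates 1 and 2 and 0.10 in replicates 3 and 4. The interaction was 0.33 (SE 0.16, adjusted p = 0.995, edgeR). In TMM-scaled CPM of expected counts all 4 pairs of MMETn-int were lower with vitC.

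No library of a group stood apart from the other 3 by Dixon's criterion in any of the 30 sets of 4 values examined, the 5 members in both groups on each of the 3 counts.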

How the results depend on the processing

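Of the members, 2 were called higher and 0 lower in the unpaired edgeR fit, with the replicate block, with DESeq2 with and without it, with the aligned library size, repeat classes only, no filter or a minimum of 10 counts, in each culture set alone and on aligned reads with and without the block. On uniquely mapped counts, with and without the block, 0 were called higher. Leaving out 1 library in the unpaired fit gave between 1 and 2, as ETnERV2-int lost its call 5 times. Its log2 fold changes there were between 0.91 and 1.12. On uniquely mapped counts ETnERV2-int was at 0.63, and at 0.61 with the block, and ETnERV3-int at 0.43 and 0.42, where none passed. ETnERV-int, never past the threshold, changed sign on uniquely mapped counts (-0.29, and -0.27 with the block), on aligned reads (-0.12 with and without it) and in replicates 1 and 2 alone (-0.25), and lay between -0.067 and 0.38 with 1 library left out. MMETn-int and RLTRETN_Mm stayed below 0 in the 21 alternatives run for each, with no call. No alternative called a culture set difference in a member.

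The ETnERV3-int ratio of 2.28 and the RLTR13B2 ratio of -1.05 passed with 1 library left out (2.13 to 2.43 and -1.16 to -0.97). They did not pass on uniquely mapped counts (0.71 and -0.065), nor where the design could not reach the threshold, in the replicate block (2.28 and -1.05, exact p = 0.125), in replicates 1 and 2 alone (2.52 and -1.15) and in replicates 3 and 4 alone (2.04 and -0.94), where the smallest exact permutation p is 0.333. The RLTRETN_Mm ratio was -0.065 on uniquely mapped counts and between -0.060 and 0.21 with 1 library left out. Over all subfamilies, 8 were called higher in the unpaired edgeR fit, 39 with the block, 20 with DESeq2, 14 with repeat classes only and 0 on uniquely mapped counts. Scaling by the aligned library size moved the median of all subfamilies to 0.12, and all 5 members kept their signs, RLTRETN_Mm at -0.0016. The causes of these shifts were not tested. Uniquely mapped counts were few: ETnERV3-int had 119 over the 4 controls and 160 over the 4 vitC libraries.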

Other observations

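Across the 8 libraries ETnERV3-int and ETnERV2-int followed each other, with a Pearson correlation of 0.94 in log2 CPM, while MMETn-int and ETnERV2-int stood at -0.77. The points share libraries, treatment and culture labels, so these are descriptions. The subfamilies most like ETnERV3-int were IAPEY2_LTR (0.985), RLTR45-int (0.984) and L1Md_F2 (0.971). The first is an LTR of IAP-related elements and the last an L1 subfamily, not of the L1Tf, L1Gf or L1A families that the study treats as young. Those most like ETnERV2-int were the ERVK subfamilies RLTR9D (0.961), MMERVK10D3_I-int (0.958) and IAP-d-int (0.955).

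For the members that did not pass, the closest patterns were found mostly outside ERVK. They were L1MB7 (0.963), MIRc (0.948) and L1MB2 (0.932) for MMETn-int, old interspersed repeats, and MER67B (0.935), LTR33A (0.909) and MTC-int (0.878) for ETnERV-int. RLTRETN_Mm was most like tRNA-Gly-GGA (0.946), MMERVK10C-int (0.942) and LSU-rRNA_Hsa (0.920).

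Control libraries of the 2 culture sets differed in RLTR13B2, which was lower in replicates 3 and 4 than in replicates 1 and 2 by a log2 difference of -0.68 (adjusted p = 0.0378, edgeR), where 0.776% of 902 subfamilies were called in either direction. None of the 5 members was called in that contrast, and ETnERV-int differed most among them, by -0.70 (adjusted p = 0.452, edgeR).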
